A study of Mus musculus with 11 samples.

Results

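The genes described here are 36 genes of cholesterol and fatty acid synthesis, taken by symbol from a table of 48299 genes measured in 11 RNA-seq libraries of WFU3, a mouse prostate epithelial stem cell line. They form a sterol arm of 18 enzymes, a fatty acid arm of 12 enzymes, and 6 regulators (the SREBP transcription factors, their escort and retention proteins, and a sterol carrier). All 36 passed the filter on low counts that left 14346 genes for testing. They were chosen by symbol, for their known roles in these pathways, and with earlier results of these data known.

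The shMap3k7 group held 2 libraries, from clone 1 (passage 49) and clone 7 (passage 47), which carried a GFP-marked hairpin against Map3k7 (the kinase TAK1) and a control hairpin with puromycin resistance. In the shDouble group, the same clones carried a Chd1 hairpin in place of the control hairpin; its 4 libraries were clone 1 with construct 96526 (replicate 1) or 96528 (replicate 2), both at passage 49, and clone 7 with 96526 (replicate 3) or 96528 (replicate 4), both at passage 48. The shChd1 group held 2 libraries, both of control line 4, with construct 96526 at passage 52 (replicate 1) or 96528 at passage 50 (replicate 2). The shControl group held 3 libraries with control hairpins only. Replicate 1 was a line with no number, marked for puromycin and neomycin resistance, at passage 30. Replicates 2 and 3 were control lines 4 and 5, both at passage 52. The labels call 1 and 7 clones and give control lines 4 and 5 a number only. Where counts or fits are given by clone, each control line is taken as 1 clone. All libraries thus carried lentiviral hairpins. The Map3k7 hairpin was present in 2 clones only, each a single isolate, so the 6 libraries with it share 2 sources, and hairpin and clone differences cannot be told apart beyond those 2 clones. Each combination of clone and construct was sequenced once, and libraries of 1 clone are related, so the p-values measure the spread between these libraries and not between independent clones. Cells of a clone that took up a Chd1 or control hairpin were selected with puromycin as a population, and RNA was taken a day after plating.

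In animal cells, cholesterol is built from acetyl-CoA through mevalonate, isoprenoid diphosphates, squalene and lanosterol, and fatty acids are built from the same acetyl-CoA through malonyl-CoA. Both arms are transcribed under the sterol regulatory element-binding proteins: SREBP-2 (gene Srebf2) acts mainly on sterol genes and SREBP-1 (gene Srebf1) mainly on fatty acid genes. When membrane cholesterol is high, the INSIG proteins hold the escort protein SCAP and its SREBP cargo in the endoplasmic reticulum; when it is low, SCAP carries the SREBP to the Golgi for cleavage. Lipid synthesis genes are also known targets of androgen signalling in prostate epithelium.

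Total counts ran from 14132371 to 23163709 per library. Map3k7 was at 41.5 ± 2.07 CPM (counts scaled to library size after TMM normalisation; mean ± SD, n = 2) in shMap3k7, 41.0 ± 1.27 in shDouble (n = 4), 138 ± 0.264 in shChd1 (n = 2) and 134 ± 8.91 in shControl (n = 3). Chd1 averaged 186 ± 16.3 CPM in shDouble, 229 ± 12.4 in shMap3k7, 148 ± 3.43 in shChd1 and 204 ± 8.61 in shControl; it fell by 0.46 on the log2 scale in shChd1 against shControl (edgeR adjusted p = 0.0470), and its value of -0.30 in shDouble against shMap3k7 was not called (adjusted p = 1.00). The epithelial label was checked on 8 epithelial markers, whose summed level was 10220 to 10420 CPM in shMap3k7, 9985 to 10550 in shDouble, 2052 to 2314 in shChd1 and 3867 to 9706 in shControl. Krt8, Krt14 and Krt18 made up most of that sum; in shDouble against shControl 4 of the 8 were called higher and 2 lower, and the basal factor Trp63 was among the lower, at 1.27 ± 0.796 CPM in shDouble and 9.56 ± 3.82 in shControl (edgeR adjusted p = 0.00279). The sum of 8 fibroblast markers was 7.35 to 10.0, 5.11 to 8.77, 119.7 to 125 and 24.5 to 92.8 CPM in the same order of groups. Lum was at 0 in all libraries. In shChd1, Col3a1 (91.0 and 87.2 CPM) and Pdgfrb (21.8 and 18.3 CPM) made up most of the sum. Col1a1 went the other way, at 2.4 and 2.0 CPM in shChd1 and 2.86 to 12.7 in shControl. The 8 adipocyte markers summed to at most 6.24 CPM in any library, with Plin1, Lep and Cfd at 0. The library of shControl replicate 1 stood apart: its 5 endothelial markers summed to 51.1 CPM, against 0.0724 to 0.498 in the other 10 libraries, with Pecam1 at 17.0 and Cdh5 at 18.2 CPM, and the basal keratin Krt5 was at 48.9 CPM there against 0.0519 to 1.93 elsewhere. Members called against shControl are therefore also given without it. Medians, ranges and the called counts of further gene lists include all 3 controls. In bulk RNA, fewer cells of a type and less RNA per cell cannot be told apart.

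Per kilobase of exon, the fatty acid arm held both the most and the least abundant of the 36 transcripts. Scd2, a stearoyl-CoA desaturase, was highest at 273 CPM per kilobase in shDouble and 195 in shControl, followed by Fasn, the fatty acid synthase, at 143 and 109.5, and Acly, the ATP citrate lyase that supplies cytosolic acetyl-CoA, at 136 and 120.4. The highest sterol enzymes were Hmgcs1, the cytosolic HMG-CoA synthase, at 107 CPM per kilobase in shDouble and 72.1 in shControl, and Idi1, the isopentenyl diphosphate isomerase, at 104 and 76.6. Acacb, the acetyl-CoA carboxylase of the mitochondrial surface, was lowest at 0.0815 in shDouble and 0.310 in shControl. Its cytosolic counterpart Acaca, which commits carbon to fatty acid synthesis, was at 16.0 and 10.9 CPM per kilobase.

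Cells with the Map3k7 hairpin had higher levels of many of these transcripts than cells without it, and the differences were modest, mostly under 1 on the log2 scale. A gene was called where its adjusted p was under 0.05 in edgeR's quasi-likelihood test, with Benjamini-Hochberg adjustment over all tested genes. In shDouble against shControl, 12 of the 36 genes were called (11 higher, 1 lower), where 23.8% of all tested genes were called, 10.2% higher and 13.6% lower. In shMap3k7 against shControl, 3 of 36 were called, all higher, where 11.9% of all genes were called, 4.86% higher and 7.08% lower. In shDouble against shChd1, 24 of 36 were called (19 higher, 5 lower), where 44.8% of all genes were called, 22.6% higher and 22.2% lower. In shChd1 against shControl, 1 of 36 was called, higher, where 2.91% of all genes were called, 0.662% higher and 2.24% lower. These comparisons share libraries and are not independent of each other. With all controls in, members called higher in shMap3k7 and shDouble against shControl were a larger share than among all genes. Those called lower were a smaller share. In shMap3k7 this rested on 3 genes. Without shControl replicate 1, 11 members were called in shDouble, with Sc5d, Acacb, Scd1, Acsl3 and Insig2 lower, where 3057 of all genes were called. In shMap3k7 3 were called then, with Insig2 lower, where 1800 of all genes were called. With all controls, 3413 and 1712 of all genes were called. The direction of the calls over all genes is not given without that replicate, so shares higher and lower are not compared there.

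Ranges were also compared without a test. In shDouble 16 members lay above and 3 below every shControl library, where 15.9% and 16.7% of all genes did; in shMap3k7 16 lay above and 4 below, where 20.9% and 22% did. In shChd1 6 lay above and 6 below every shControl library, where 23.1% and 23.4% of all genes did. Against shChd1, 22 members lay above and 7 below in shDouble, where 31.8% and 31.9% of all genes did. Across all 11 libraries, 11 of the 36 genes were higher in each of the 6 libraries with the Map3k7 hairpin than in any of the 5 without it, where 12.1% of all genes were, and 1 (Acacb) was lower, where 12.8% were. The 11 were Hmgcs1, Pmvk, Idi1, Fdft1, Sqle and Msmo1 of the sterol arm, Acaca, Fasn and Fads2 of the fatty acid arm, and the regulators Srebf2 and Scap.

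**Figure D1:**
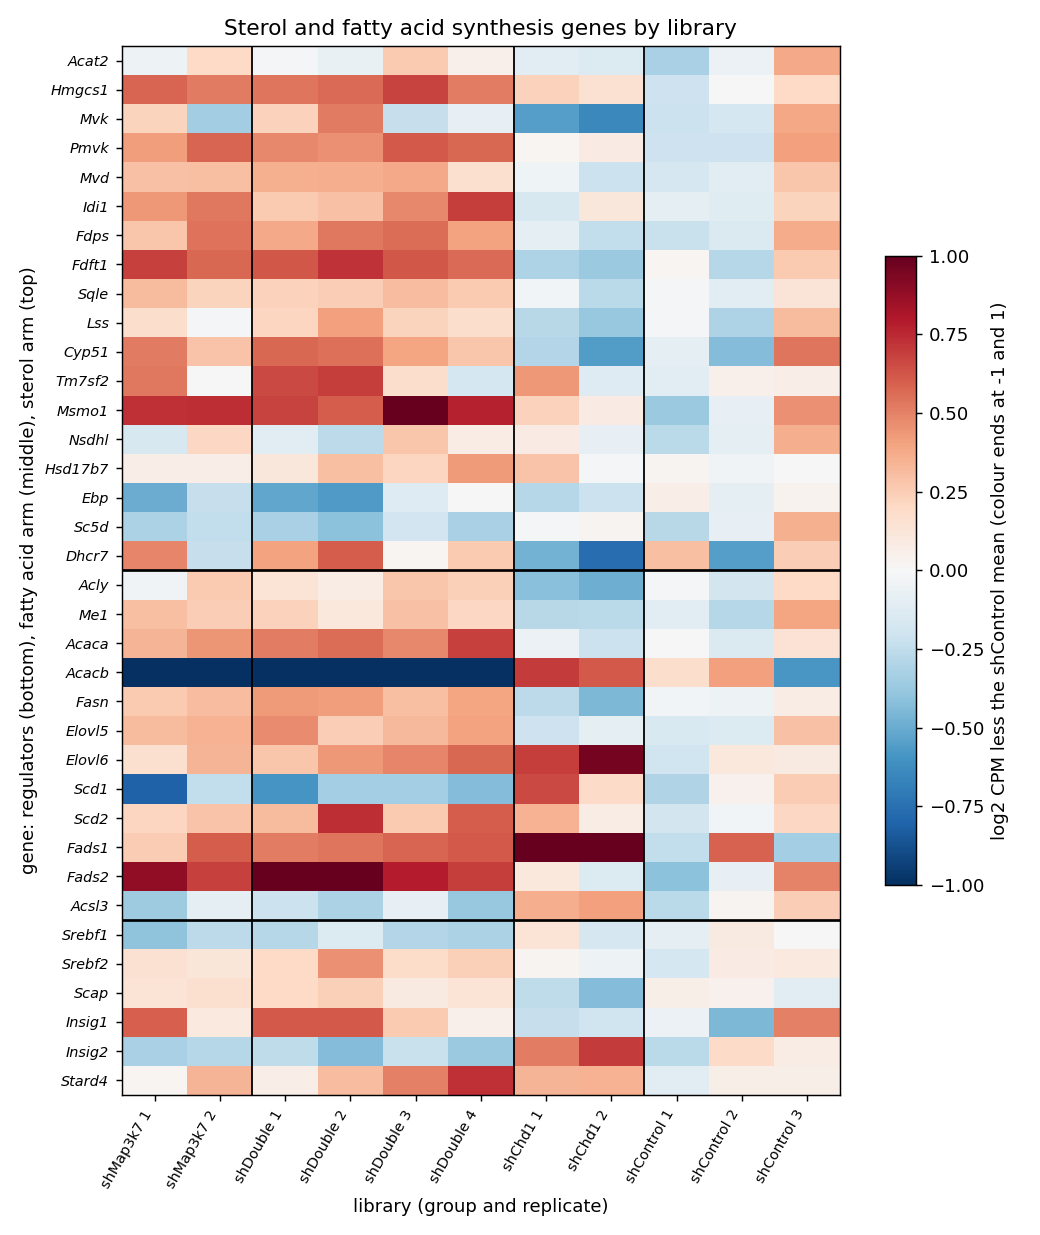
Each row is 1 gene and each column 1 library; colour shows log2 CPM less the mean of the 3 shControl libraries, and black lines part the groups and the gene lists. The 6 libraries with the Map3k7 hairpin are red for Hmgcs1, Fdft1 and Fads2 and dark blue for Acacb, and shControl replicate 3 is red for most sterol genes.

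The early, mevalonate part of the sterol arm was led by Hmgcs1 (ENSMUSG00000093930.2, chromosome 13, 119690379 to 119708260, GRCm38), an enzyme of the first steps toward mevalonate. It measured 492 and 472 CPM in shMap3k7, 476, 488, 527 and 469 in shDouble, 386 and 365 in shChd1 and 286, 329.5 and 379 in shControl. Every library with the Map3k7 hairpin was above every library without it, and shControl replicate 1 was the lowest of all. The log2 fold change was 0.54 ± 0.11 (SE) in shMap3k7 against shControl (edgeR adjusted p = 0.0158), 0.57 ± 0.10 in shDouble against shControl (adjusted p = 0.00303) and 0.38 ± 0.11 in shDouble against shChd1 (adjusted p = 0.0169). Without shControl replicate 1 the first 2 were 0.44 (adjusted p = 0.0245) and 0.47 (adjusted p = 0.00711).

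The next enzymes of the mevalonate part differed among themselves. Pmvk (phosphomevalonate kinase) was 0.50 and Idi1 0.43 higher on the log2 scale in shDouble than in shControl (edgeR adjusted p = 0.0310 and 0.0367), and both calls ended without shControl replicate 1. Mvk (mevalonate kinase), Mvd (mevalonate diphosphate decarboxylase) and Acat2 (the cytosolic thiolase at the start of the path) were not called there, at 0.11, 0.30 and 0.029. Fdps, which makes farnesyl diphosphate, measured 306 and 367 CPM in shMap3k7, 329, 363, 372 and 334 in shDouble, 236 and 213 in shChd1 and 216, 228 and 326 in shControl. The shDouble libraries all lay above the controls, the highest of which was replicate 3, while 1 shMap3k7 library lay below that control. In shDouble, Fdps was 0.44 ± 0.14 above shControl (adjusted p = 0.0433) and 0.64 ± 0.16 above shChd1 (adjusted p = 0.00926), and the call against shControl ended without shControl replicate 1.

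Fdft1, squalene synthase, takes the first step that is committed to sterols. Its levels were 199 and 184 CPM in shMap3k7, 189.9, 204, 190.0 and 184 in shDouble, 100.1 and 95.8 in shChd1 and 126, 102 and 148 in shControl. The 6 libraries with the Map3k7 hairpin lay close together and above all others, and both shChd1 libraries were below every control. Against shControl, Fdft1 rose by 0.61 ± 0.14 in shMap3k7 and by 0.62 ± 0.12 in shDouble (adjusted p = 0.0188 and 0.00469), and by 0.97 ± 0.14 in shDouble against shChd1 (adjusted p = 0.000447). With shControl replicate 1 left out, the shDouble difference was 0.62 (adjusted p = 0.0137) and that of shMap3k7 0.61 (adjusted p = 0.0350).

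Sqle, squalene epoxidase and a slow step of the path, moved less. It measured 238 and 222 CPM in shMap3k7, 224, 226, 237 and 228 in shDouble, 187 and 158 in shChd1 and 189, 176 and 208 in shControl. The ranges with and without the Map3k7 hairpin did not overlap, but the difference of shDouble from shControl, 0.26 ± 0.087, did not pass the test (adjusted p = 0.0526). Against shChd1 it was 0.41 ± 0.10 and passed (adjusted p = 0.00772).

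Of the enzymes after squalene, 1 was called in shDouble against shControl: Msmo1, the methylsterol monooxygenase, at 0.74 ± 0.18 (adjusted p = 0.0143; 178 ± 23.3 CPM in shDouble, n = 4, and 107 ± 32.2 in shControl, n = 3). With shControl replicate 1 left out it was 0.57 (adjusted p = 0.0370). Besides Sqle, the other 8 late enzymes were not called in that comparison. Cyp51, Tm7sf2, Dhcr7, Hsd17b7 and Lss had log2 fold changes of 0.40, 0.39, 0.29, 0.27 and 0.24. Nsdhl, Ebp and Sc5d, which act on the sterol nucleus late in the path, were at -0.016, -0.28 and -0.34. Without shControl replicate 1, Sc5d was called lower in shDouble, at -0.46 (edgeR adjusted p = 0.0247). With all controls in, the direction was positive in 15 of the 18 sterol enzymes, where 49.8% of all tested genes had a positive value.

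Promoter windows, from 250 bases before to 50 bases after an annotated start, were available from RefSeq (GRCm38.p6) for 29 of the 36 genes, in 38 windows. The letters CCAAT, the core bound by NF-Y, a factor known to act with SREBPs, stood on either strand in 14 of 15 sterol genes (93.3%), 6 of 9 fatty acid genes (66.7%) and 41.1% of 27025 genes with a window. GGGCGG, a GC box, stood in 14 of 15 sterol genes, 4 of 9 fatty acid genes (44.4%) and 38.2% of all genes. CACGTG, an E box, stood in 6 of 29 (20.7%) against 8.09% of all. TCACNCCAC, a strict form of the sterol regulatory element, stood in Hmgcs1 and in no other of the 29 genes, and in 1.44% of all genes. All members passed the filter on low counts, while the 27025 genes include genes that did not. Motif shares among tested genes only were not taken. Matches are descriptions of letters in these windows and not binding sites.

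The windows below show 3 genes that were called in shDouble against shControl and carry CCAAT several times, and Elovl6, which was called in the same comparison and holds none of the 4 motifs. They do not stand for all members. Mvk and Hsd17b7, not called there, hold CCAAT 5 and 3 times, while Acaca and Fads2, called there, hold it 0 times. Each printed window is written 5′ to 3′ on the gene's strand, with capitals at TCACNCCAC, CCAAT and GGGCGG or their reverse complements. In Hmgcs1 the sterol element begins 137 bases before the start, and in Fasn the letters CCAATTGG are a CCAAT on each strand that overlap.
Hmgcs1 (chr13:119690101-119690400, forward strand): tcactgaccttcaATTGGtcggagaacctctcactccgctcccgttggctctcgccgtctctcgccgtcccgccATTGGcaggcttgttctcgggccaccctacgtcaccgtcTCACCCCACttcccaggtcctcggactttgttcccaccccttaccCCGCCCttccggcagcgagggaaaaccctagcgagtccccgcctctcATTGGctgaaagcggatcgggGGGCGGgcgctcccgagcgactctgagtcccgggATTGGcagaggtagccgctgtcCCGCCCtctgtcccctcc
Msmo1 (chr8:64733529-64733828, reverse strand): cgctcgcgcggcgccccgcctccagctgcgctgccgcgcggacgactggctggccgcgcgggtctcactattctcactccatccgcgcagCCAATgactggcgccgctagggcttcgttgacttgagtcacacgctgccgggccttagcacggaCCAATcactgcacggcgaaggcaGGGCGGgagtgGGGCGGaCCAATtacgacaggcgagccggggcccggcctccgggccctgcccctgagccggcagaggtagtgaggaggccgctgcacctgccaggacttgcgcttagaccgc
Fasn (chr11:120824498-120824797, reverse strand): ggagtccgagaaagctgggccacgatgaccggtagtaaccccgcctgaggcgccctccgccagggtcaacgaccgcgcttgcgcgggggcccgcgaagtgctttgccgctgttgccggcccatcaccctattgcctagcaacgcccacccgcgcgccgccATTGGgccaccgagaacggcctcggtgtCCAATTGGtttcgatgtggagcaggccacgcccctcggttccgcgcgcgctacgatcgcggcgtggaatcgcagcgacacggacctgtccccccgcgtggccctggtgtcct
Elovl6 (chr3:129532136-129532435, forward strand): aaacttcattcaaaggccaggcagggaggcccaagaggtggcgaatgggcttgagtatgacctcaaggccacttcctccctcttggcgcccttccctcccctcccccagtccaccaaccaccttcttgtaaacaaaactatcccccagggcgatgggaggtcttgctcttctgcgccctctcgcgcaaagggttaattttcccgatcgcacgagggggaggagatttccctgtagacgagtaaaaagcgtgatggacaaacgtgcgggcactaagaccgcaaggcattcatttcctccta

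In the fatty acid arm, Acaca and Fasn, which make palmitate, rose in shDouble against shControl, while the desaturases and the acyl-CoA synthetase had values of both signs. Acaca (chromosome 11, 84129672 to 84401651) measured 235 and 251 CPM in shMap3k7, 264, 273, 259 and 299 in shDouble, 178 and 160.3 in shChd1 and 185, 168 and 206 in shControl. All libraries with the Map3k7 hairpin were above all without it. Against shControl, Acaca rose by 0.38 ± 0.11 in shMap3k7 and by 0.56 ± 0.093 in shDouble (adjusted p = 0.0455 and 0.00264), and by 0.70 ± 0.11 in shDouble against shChd1 (adjusted p = 0.000698). Without shControl replicate 1 the value of shMap3k7 was 0.38 (adjusted p = 0.0777) and that of shDouble 0.55 (adjusted p = 0.00832).

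Fasn, which runs the cycles that lengthen malonyl units to palmitate, measured 1432 and 1485 CPM in shMap3k7, 1610.0, 1600.0, 1475 and 1574 in shDouble, 998 and 875 in shChd1 and 1175, 1159 and 1260.0 in shControl. The groups formed 3 steps without overlap: Map3k7 hairpin libraries, then controls, then shChd1. In shDouble Fasn was 0.38 ± 0.072 above shControl (adjusted p = 0.00439) and 0.74 ± 0.083 above shChd1 (adjusted p = 0.000157), and in shMap3k7 it was 0.28 ± 0.085 above shControl, which missed the threshold (adjusted p = 0.0535). Against shControl without replicate 1, the shDouble value was 0.37 (adjusted p = 0.0141).

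Acly supplies the arm with acetyl-CoA, and Me1 (malic enzyme) supplies it with NADPH. Acly measured 618 and 757 CPM in shMap3k7, 696, 664, 766 and 746 in shDouble, 473 and 449 in shChd1 and 625, 556 and 726 in shControl. The libraries with the Map3k7 hairpin overlapped the controls, and the shChd1 libraries were the lowest. Acly was called only in shDouble against shChd1, at 0.64 ± 0.12 (adjusted p = 0.00234), as was Me1, at 0.49 ± 0.16 (adjusted p = 0.0316).

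Acacb moved opposite to Acaca. The malonyl-CoA it makes is known to restrain the entry of fatty acids into mitochondria. It measured 1.301 and 1.23 CPM in shMap3k7, 0.309, 1.06, 0.885 and 0.891 in shDouble, 4.73 and 4.43 in shChd1 and 3.25, 3.84 and 1.87 in shControl. Every library with the Map3k7 hairpin was below every other, at levels near the lower end of what these libraries count. The log2 fold change was -1.93 ± 0.38 in shDouble against shControl (adjusted p = 0.00608), -2.54 ± 0.41 against shChd1 (adjusted p = 0.000927) and -1.23 ± 0.47 in shMap3k7 against shControl, not called (adjusted p = 0.114). The call against shControl was lost with clone as a random effect and with counts summed per clone. Leaving out shControl replicate 1, the first was -1.86 (adjusted p = 0.0157).

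Elongases came next. Elovl5, which lengthens polyunsaturated fatty acids, measured 77.6 and 79.3 CPM in shMap3k7, 86.4, 73.9, 78.1 and 82.1 in shDouble, 53.8 and 58.3 in shChd1 and 56.0, 56.5 and 76.2 in shControl. The control of replicate 3 lay inside the shDouble range, and Elovl5 passed only against shChd1 (0.52 ± 0.13, adjusted p = 0.0102). Elovl6, which lengthens palmitate, was highest in shChd1: 118 and 134 CPM in shMap3k7, 128, 143, 148 and 157 in shDouble, 170.4 and 206 in shChd1 and 92.1, 114 and 113 in shControl. It was the single member called in shChd1 against shControl, at 0.82 ± 0.13 (adjusted p = 0.0253); in shDouble it was 0.44 ± 0.11 above shControl (adjusted p = 0.0186) and -0.38 ± 0.12 against shChd1 (adjusted p = 0.0294). Without shControl replicate 1 the shChd1 call ended, at 0.73 (adjusted p = 0.0687), and the shDouble value was 0.35 (adjusted p = 0.0587).

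Desaturases put double bonds into fatty acids, and the stearoyl-CoA desaturases Scd1 and Scd2, which make oleate and palmitoleate, had values of opposite sign against shControl. Scd1 measured 171 and 253 CPM in shMap3k7, 199.6, 237, 237 and 222 in shDouble, 474 and 343 in shChd1 and 244, 309 and 357 in shControl. All shDouble libraries were below all controls, while 1 shMap3k7 library lay within their range. Scd1 was lower in shDouble than in shChd1, at -0.87 ± 0.19 (adjusted p = 0.00420), and was -0.44 ± 0.17 against shControl, not called (adjusted p = 0.0867). Without shControl replicate 1, Scd1 was called lower in shDouble than in shControl, at -0.57 (edgeR adjusted p = 0.0419). Its neighbour Scd2 was higher in shDouble than in shControl, at 0.48 ± 0.14 (adjusted p = 0.0282; 1493 ± 239 CPM in shDouble, n = 4, and 1067 ± 147 in shControl, n = 3), a call that ended without shControl replicate 1. The ratio of Scd1 to Scd2 was 0.134 to 0.196 in the 6 libraries with the Map3k7 hairpin and 0.261 to 0.351 in the other 5, and these ranges did not overlap. This ratio was formed after the values were seen, so it is given with no test; the expected counts of such similar genes also depend on how the reads they share were divided.

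Fads2, the first desaturase of polyunsaturated fatty acid synthesis, had the largest positive log2 fold change of the arm in shDouble against shControl; with the chromosome medians taken off, Acaca exceeded it there (0.57 against 0.49). It measured 130.4 and 113 CPM in shMap3k7, 144, 157, 121 and 114 in shDouble, 75.8 and 64.3 in shChd1 and 52.9, 66.5 and 99.8 in shControl. All libraries with the Map3k7 hairpin lay above all without it, and clone 1 lay above clone 7. The log2 fold change was 0.88 ± 0.20 in shDouble against shControl (adjusted p = 0.0114), 0.69 (adjusted p = 0.0294) without shControl replicate 1, 0.94 ± 0.23 against shChd1 (adjusted p = 0.00798) and 0.74 ± 0.23 in shMap3k7 against shControl, not called (adjusted p = 0.0632). Fads1, which acts after it, followed another order, with 36.4 and 46.4 CPM in shMap3k7, 43.6, 44.4, 45.8 and 46.9 in shDouble, 65.8 and 61.5 in shChd1 and 25.7, 46.0 and 24.1 in shControl. Its shChd1 values were the highest, but it was called in none of the 4 comparisons (adjusted p = 0.0514 in shChd1 against shControl).

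Acsl3, an acyl-CoA synthetase of lipid droplets, was lower in shDouble than in shChd1. It measured 111 and 133 CPM in shMap3k7, 122, 114, 134 and 109 in shDouble, 182 and 188 in shChd1 and 117, 144 and 168 in shControl. The shDouble libraries overlapped the controls and lay below shChd1 (-0.63 ± 0.14, adjusted p = 0.00479). Without shControl replicate 1, Acsl3 was called lower in shDouble than in shControl, at -0.38 (edgeR adjusted p = 0.0432).

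**Figure D2:**
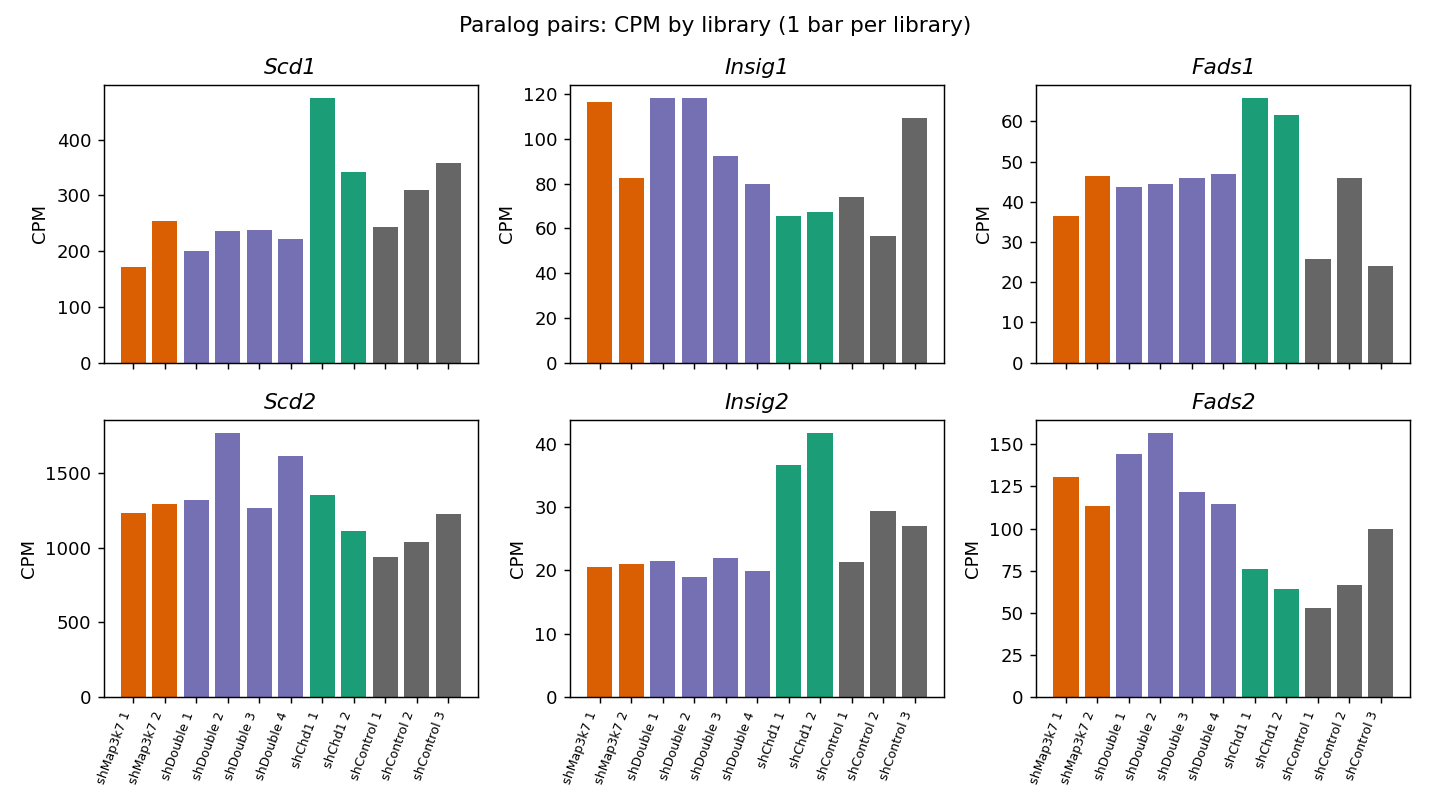
Bars give CPM in each library for 3 pairs of paralogs, coloured by group, with every axis starting at 0. Scd1 is lower and Scd2 higher in shDouble than in shControl, Insig2 is highest in the 2 shChd1 libraries, and Fads2 but not Fads1 is highest in the 6 libraries with the Map3k7 hairpin.

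Chromosome 19 carries Scd1, Scd2, Fads1, Fads2 and the sterol reductase gene Tm7sf2. The median log2 fold change of its 469 tested genes was 0.39 in shDouble against shControl, 0.36 in shMap3k7 against shControl and 0.40 in shDouble against shChd1, where the medians of all tested genes were -0.0015, -0.0086 and 0.0066. The median departure of its genes from the control mean was 0.45 and 0.29 in shMap3k7 and 0.27 to 0.48 in shDouble, against -0.061 and -0.045 in shChd1 and -0.031 to 0.038 in shControl. Less that median, Scd2 in shDouble against shControl was 0.10, Fads2 0.49 and Scd1 -0.83. The part of the chromosome-wide shift in these genes' values was not tested.

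None of the 6 regulators was called against shControl with all controls in, and Scap and Insig2 were called in shDouble against shChd1. Srebf2 measured 446 and 437 CPM in shMap3k7, 460.2, 551, 456 and 474 in shDouble, 408 and 388 in shChd1 and 355, 424 and 429.7 in shControl. The libraries with the Map3k7 hairpin were all above the others, by 0.27 ± 0.10 in shDouble against shControl (adjusted p = 0.0656), which did not pass. Srebf1 was placed the other way against the controls, with 137 and 151 CPM in shMap3k7, 148, 165, 148 and 146 in shDouble, 199 and 162 in shChd1 and 170.2, 193 and 181 in shControl. All 6 libraries with the Map3k7 hairpin were below all controls, but not below shChd1; the difference of shMap3k7 from shControl was -0.33 ± 0.11 and that of shDouble -0.26 ± 0.094, neither of them called (adjusted p = 0.0817 and 0.0709). Gene counts do not separate the Srebf1 isoforms, and mRNA does not show how much SREBP is cleaved.

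Scap, the SREBP escort, measured 129 and 132 CPM in shMap3k7, 135, 138, 125 and 129 in shDouble, 98.6 and 86.8 in shChd1 and 123, 121 and 109 in shControl. The shChd1 libraries were the lowest, and Scap was called in shDouble against shChd1 at 0.51 ± 0.093 (adjusted p = 0.00166). Insig2, a retention protein, ran opposite, with 20.5 and 21.0 CPM in shMap3k7, 21.5, 19, 22.02 and 19.9 in shDouble, 36.6 and 41.7 in shChd1 and 21.3, 29.4 and 27.1 in shControl. Both shChd1 libraries were above all others, and shDouble was -0.93 ± 0.13 against shChd1 (adjusted p = 0.000502). Against shControl without replicate 1, Insig2 was called lower, at -0.45 (adjusted p = 0.0480) in shMap3k7 and -0.46 (adjusted p = 0.0159) in shDouble. Insig1, itself a known SREBP target, measured 116 and 82.4 CPM in shMap3k7, 118, 118, 92.3 and 79.6 in shDouble, 65.7 and 67.3 in shChd1 and 74.2, 56.6 and 109 in shControl. Libraries with the Map3k7 hairpin overlapped the controls, and Insig1 was not called in any of the 4 comparisons, with 0.35 ± 0.22 in shDouble against shControl (adjusted p = 0.279). Stard4, a cytosolic sterol carrier, was 0.42 ± 0.15 in shDouble against shControl, not called (adjusted p = 0.0615).

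**Figure D3:**
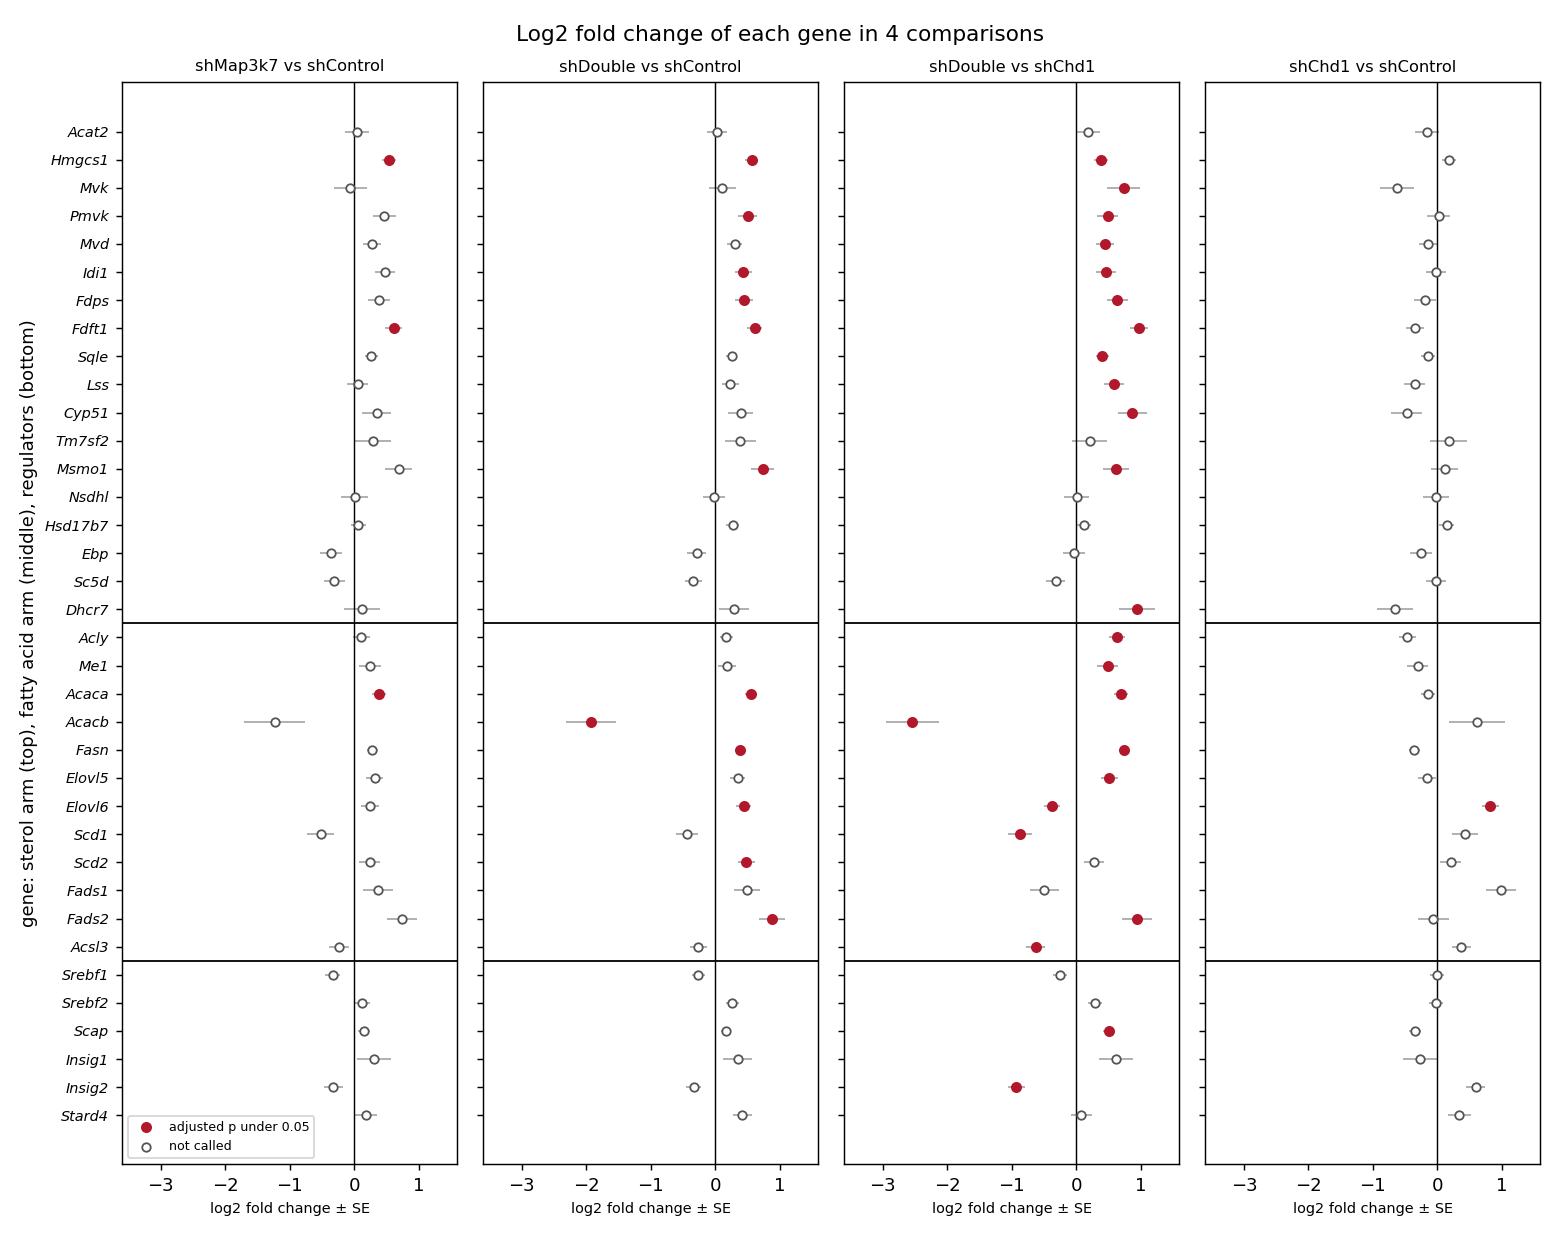
Points are log2 fold changes with SE bars for each gene in 4 comparisons; filled points have an adjusted p under 0.05. In shDouble against shChd1, 19 genes are called to the right of 0 and 5 to the left (Acacb, Elovl6, Scd1, Acsl3 and Insig2).

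Both arms had positive medians against shControl in shMap3k7 and shDouble, and medians of opposite sign in shChd1. In shDouble against shControl the median log2 fold change was 0.29 over the sterol arm (6 higher, 0 lower of 18) and 0.37 over the fatty acid arm (5 higher, 1 lower of 12). In shMap3k7 the medians were 0.27 (2 higher, 0 lower) and 0.25 (1 higher, 0 lower). In shDouble against shChd1 they were 0.45 (12 higher, 0 lower) and 0.38 (6 higher, 4 lower), so every call in the sterol arm was a rise and the fatty acid arm held calls both ways. The range of single genes in that comparison was -0.32 to 0.97 in the sterol arm and -2.54 to 0.94 in the fatty acid arm. In shChd1 against shControl the medians were -0.14 (0 called) and 0.074 (1 higher, 0 lower). With each gene's chromosome median taken off, the sterol and fatty acid medians were 0.27 and 0.20 in shDouble against shControl, 0.23 and 0.21 in shMap3k7 against shControl, 0.39 and 0.21 in shDouble against shChd1, and -0.12 and 0.13 in shChd1 against shControl. In shDouble against shControl the fatty acid median was thus the higher before, and the lower after, that step. The fitted medians of all tested genes in these 4 comparisons were at most 0.0086 from 0. No test was made of 1 arm against the other.

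By library, the median departure from the control mean separated shControl replicate 3 from the other controls. Over the sterol arm it was 0.30 and 0.21 in shMap3k7, 0.31, 0.43, 0.29 and 0.26 in shDouble, -0.070 and -0.18 in shChd1 and -0.14, -0.11 and 0.30 in shControl. Over the fatty acid arm it was 0.23 and 0.30 in shMap3k7, 0.30, 0.33, 0.30 and 0.40 in shDouble, 0.23 and -0.011 in shChd1 and -0.17, -0.037 and 0.20 in shControl. Replicate 3, line 5, was the highest control in 15 of 18 sterol genes and 9 of 12 fatty acid genes. It was at or above the lowest library with the Map3k7 hairpin in 11 of 18 sterol genes and 6 of 12 fatty acid genes. Each of the other 2 controls was at or above that library in 6 of 18 sterol genes. The 6 sterol genes Hmgcs1, Pmvk, Idi1, Fdft1, Sqle and Msmo1 were below every library with the Map3k7 hairpin in all 3 controls.

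**Figure D4:**
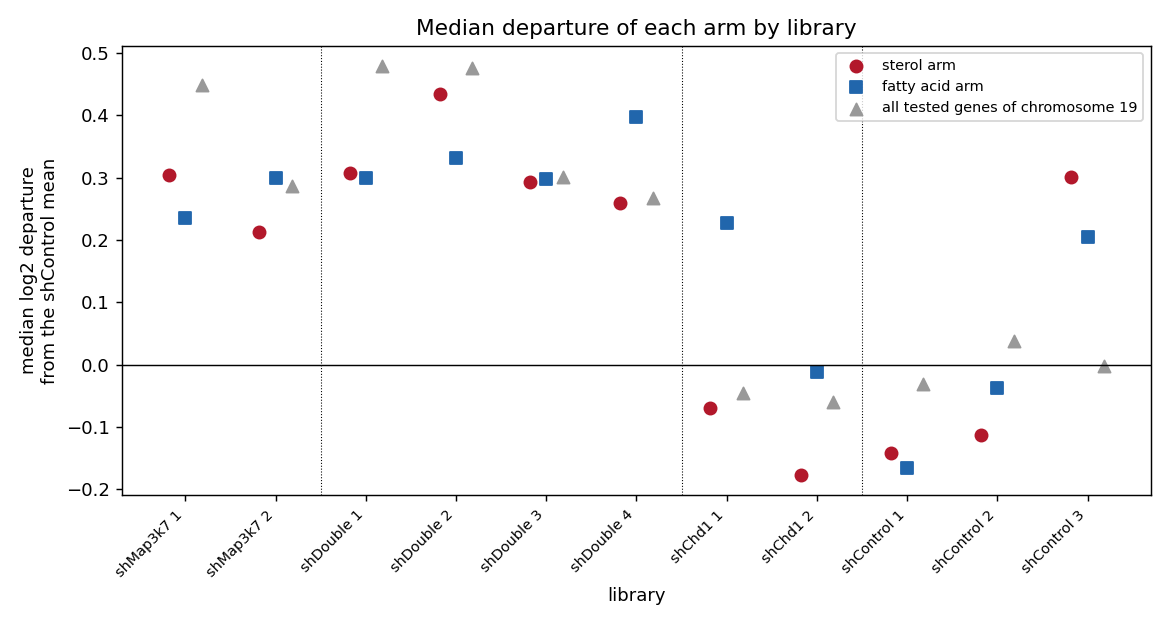
Points show, for each library, the median log2 departure from the shControl mean over the sterol arm, the fatty acid arm and all tested genes of chromosome 19. For the sterol arm, shControl replicate 3 (0.30) sits among the libraries with the Map3k7 hairpin (0.21 to 0.43).

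The calls against shControl moved with the control library left out. In shDouble they numbered 11 without replicate 1 (6 higher: Hmgcs1, Fdft1, Msmo1, Acaca, Fasn and Fads2; 5 lower: Sc5d, Acacb, Scd1, Acsl3 and Insig2), 8 without replicate 2 and 19 without replicate 3. Of the 12 called with all controls, 7 were called without replicate 1, 7 without replicate 2 and 12 without replicate 3. Over all tested genes the calls in shDouble were 3057, 2177 and 3273 in the same order, against 3413 with all controls. Those in shMap3k7 were 1800, 1085 and 2070, against 1712. Left out in turn, no library ended the calls of Hmgcs1, Fdft1, Acaca, Fasn, Fads2 or Acacb in shDouble, which stood 11 of 11 times; Msmo1 was lost without shControl replicate 2, and Pmvk, Idi1, Fdps, Elovl6 and Scd2 were lost without shDouble replicate 4 or shControl replicate 1, among others. With clone as a random effect (limma voom), Hmgcs1, Fdft1, Msmo1, Acaca, Fasn and Fads2 were called in shDouble and Acacb was not. Without shDouble replicate 4, 7 members were called. In shMap3k7 they numbered 3 without replicate 1 (Hmgcs1 and Fdft1 higher, Insig2 lower), 3 without replicate 2 and 13 without replicate 3, and 0 without either shMap3k7 library. In shChd1 members called numbered 0, 9 and 0 without shControl replicates 1, 2 and 3. Over all tested genes, 5, 2650 and 4 were called in the same order, against 417 with all controls. The genes nearest the threshold in shChd1 against shControl were Fads1 (0.99 ± 0.23, adjusted p = 0.0514), Insig2 (0.59 ± 0.14, adjusted p = 0.0539) and Fasn (-0.36 ± 0.086, adjusted p = 0.0542). The 9 of shChd1 without shControl replicate 2 were Elovl6, Fads1 and Insig2, higher, and Fdft1, Lss, Cyp51, Dhcr7, Acly and Fasn, lower. That replicate is line 4, the line of both shChd1 libraries, so without it hairpin and line cannot be told apart. The ratio of mean CPM in shChd1 to CPM in that control was 1.65, 1.38 and 1.33 for Elovl6, Fads1 and Insig2. For Fdft1, Lss, Cyp51, Dhcr7, Acly and Fasn it was 0.963, 0.986, 1.01, 0.960, 0.83 and 0.81. With counts summed per clone within each group, 0 members were called in shDouble or shMap3k7 against shControl.

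In shDouble against shChd1 the Map3k7 clones were set against control line 4, so both hairpin and line differ. The epithelial marker sums (9985 to 10550 CPM in shDouble, 2052 to 2314 in shChd1) moved with the result. Their part in it was not tested. Called sterol genes were Hmgcs1, Mvk, Pmvk, Mvd, Idi1, Fdps, Fdft1, Sqle, Lss, Cyp51, Msmo1 and Dhcr7. Fdft1, Dhcr7 and Cyp51 had the largest differences of the sterol arm, at 0.97, 0.94 and 0.87. Summing counts per clone, or leaving out either shChd1 library, left a single shChd1 sample, and fewer members were then called. Fewer of all tested genes were called then too. Leaving out each library in turn, the sterol median ran from 0.43 to 0.52 and the fatty acid median from 0.31 to 0.44.

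No member was called for the Chd1 hairpins in cells with the Map3k7 hairpin. In these cells Chd1 itself averaged 186 CPM in shDouble and 229 in shMap3k7, a difference that was not called. The absence of calls therefore does not show that loss of Chd1 leaves these genes unchanged. In shDouble against shMap3k7, 0 of 36 genes were called and 0 had an unadjusted p under 0.05; over all genes 0% were called by edgeR and 115 had an unadjusted p under 0.05, and DESeq2 and limma on the deposited log2 values also called 0 of all genes. The largest values were -0.69 (Acacb) and 0.24 (Scd2). Within lines 4, 1 and 7, each Chd1 hairpin library was set against its own line without it. There edgeR called 0 of 36 genes, where 0.0283% of all genes (4, all higher) were called. DESeq2 also called 0 of the 36. In edgeR, 5 of 36 and 707 of all genes had an unadjusted p under 0.05. The 5 were Elovl6, Stard4, Fads1, Hsd17b7 and Scd2, all positive, at 0.36, 0.25, 0.25, 0.19 and 0.24 on the log2 scale. For the interaction of both knockdowns, that is the Chd1 difference with the Map3k7 hairpin less that without it, 0 of 36 genes and 0% of all genes were called by edgeR. An unadjusted p under 0.05 was found in 7 of 36 and 1998 of all genes, and DESeq2 called 2 of the 36; without shControl replicate 2, edgeR also called 2. The smallest p were for Fasn (0.46 ± 0.12, adjusted p = 0.194) and Elovl6 (-0.63 ± 0.18, adjusted p = 0.228).

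The Map3k7 hairpin clones differed from each other. Over 3 libraries each, 6 members were higher in every library of clone 1 than in any of clone 7, where 23.3% of all genes were: Mvk, Cyp51, Insig1, Dhcr7, Tm7sf2 and Fads2. A further 9 were higher in clone 7, where 22.1% of all genes were: Pmvk, Msmo1, Nsdhl, Ebp, Acly, Idi1, Acat2, Stard4 and Fads1. The first share of the 36 was below that of all genes and the second close to it. The 6 higher in clone 1 all lay on chromosomes 5, 7 and 19, where the median of all genes was 0.24, 0.29 and 0.18 higher in clone 1 than in clone 7. On the same chromosomes Acacb, Scd1 and Fads1 had values of the opposite sign, at -0.32, -0.24 and -0.17 in clone 1 against clone 7, and Scd2 was at 0.041. The part of the chromosome shifts in the members' values was not tested. Mvk, for example, was at 57.6, 57.9 and 70.7 CPM in clone 1 and 38.7, 41.9 and 46.5 in clone 7.

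**Figure D5:**
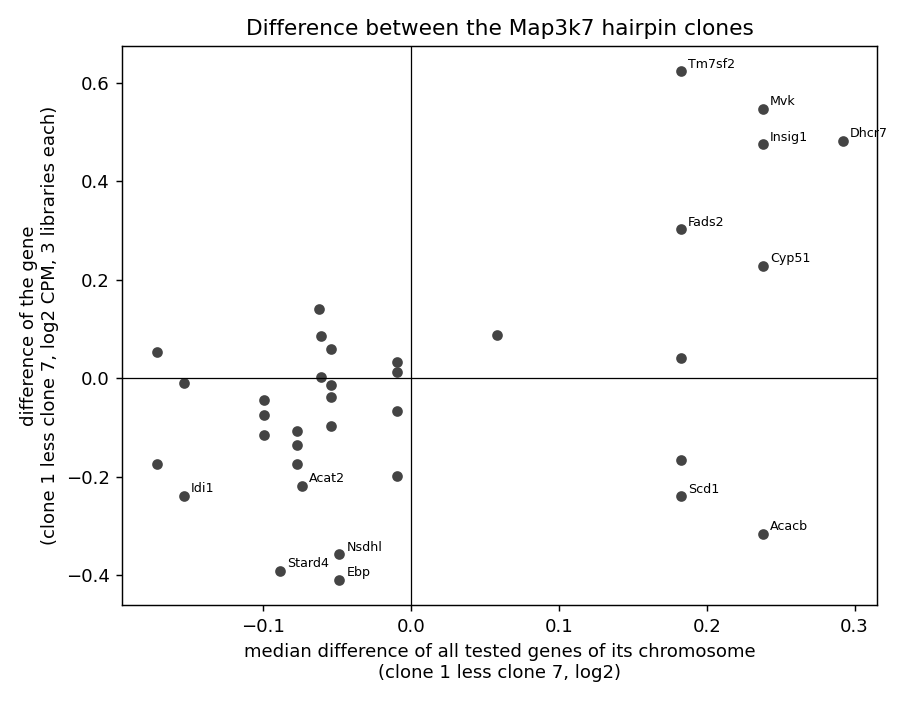
Each point is 1 of the 36 genes: the horizontal axis gives the median log2 difference between clones 1 and 7 of all tested genes on its chromosome, and the vertical axis its own difference. Tm7sf2, Mvk, Insig1, Dhcr7, Fads2 and Cyp51 sit at the upper right, on chromosomes whose genes are higher in clone 1.

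Other genes of these pathways were given by lists, read against the shares of all genes called (10.2% higher and 13.6% lower in shDouble against shControl, 22.6% and 22.2% against shChd1). Of 8 further sterol and isoprenoid enzymes, 2 were called in shDouble against shControl, both higher, a share near the 23.8% of all genes called. Lbr, the lamin B receptor, which is also a sterol reductase, was 0.50 ± 0.10 in shDouble and 0.47 ± 0.12 in shMap3k7 (adjusted p = 0.00692 and 0.0307). Without shControl replicate 1 Lbr missed the threshold in shMap3k7, at 0.40 (adjusted p = 0.0666). Against shChd1, 4 of the 8 were higher in shDouble and 0 lower.

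Of 10 tested genes of sterol uptake and trafficking, 3 were higher and 2 lower in shDouble than in shControl, where 10.2% and 13.6% of all genes were. Lrp8, a receptor of the LDL receptor family, rose by 0.81 ± 0.17 (adjusted p = 0.00835) and Osbp, the oxysterol-binding protein on chromosome 19, by 0.73 ± 0.11 (adjusted p = 0.00174); Npc2, which hands on cholesterol in lysosomes, was at -0.96 ± 0.23 (adjusted p = 0.0134). Of 10 genes of SREBP processing and degradation, 2 were higher in shDouble than in shControl (Erlin1, on chromosome 19, 0.74 ± 0.12, adjusted p = 0.00244; Fbxw7 0.37 ± 0.11, adjusted p = 0.0386) and 1 was lower (Rnf145 -0.45 ± 0.13, adjusted p = 0.0276). These 3 of 10 were near the 23.8% of all genes called. ERLIN1 and RNF145 are membrane proteins of the sterol-controlled degradation machinery, and FBXW7 directs nuclear SREBP to degradation. Fbxw7 lost its call without shControl replicate 1, at 0.27 (adjusted p = 0.114); the other genes named here kept theirs in shDouble.

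Of 19 tested genes of other fatty acid and lipid synthesis, 2 were higher and 3 lower in shDouble than in shControl, again near the 23.8% of all genes called. Acsl5, an acyl-CoA synthetase gene on chromosome 19, was 0.79 ± 0.15 in shDouble and -0.87 ± 0.18 in shChd1 against shControl, both called (adjusted p = 0.00425 and 0.0387). Without shControl replicate 1 the shDouble value was 0.85 (adjusted p = 0.00858) and the shChd1 call ended, at -0.81 (adjusted p = 0.108). Dgat1, which makes triglycerides, was -0.83 ± 0.14 in shDouble (adjusted p = 0.00298) and Acsl1 -0.77 ± 0.18 (adjusted p = 0.0126).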

How the data were processed

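RNA of 11 WFU3 cultures was enriched for mRNA with oligo(dT) beads and sequenced, per the labels' protocols. The deposited raw table holds expected counts per gene, made with Bowtie2 and RSEM 1.3.1 on GRCm38, per the submitters' processing notes; neither the strand setting nor the annotation is given in the sources used here, so reads of overlapping genes may not be separated. A second deposited table holds log2 values, used here in 1 alternative.

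Counts were rounded and tested in R 4.3.3 with edgeR 4.0.16: filterByExpr (minimum count 10, minimum total 15; 14346 genes kept), TMM scaling, a mean for each of 4 groups over 11 libraries, the quasi-likelihood test, and p-values adjusted by Benjamini-Hochberg over the genes tested. The Chd1 hairpins were also tested within lines 1, 4 and 7 (9 libraries, line as a block, 14151 genes). Alternatives used DESeq2 1.42.0, limma 3.58.1, RLE scaling, no filter, clone as a random effect, counts summed per clone and leaving out each library. Lines 1, 4 and 7 pair the samples, per the labels. The log2 gap between clones 1 and 7 in shMap3k7 and that in shDouble had r = 0.571 over 14346 genes. The analysis was tested on simulated counts drawn separately for each library, with no effect of clone. It therefore did not test the p-values where libraries share a clone. Coordinates and exon lengths came from GENCODE M21 (GRCm38). Depth was 14132371 to 23163709 counts; 3 counts correspond to 0.133 to 0.217 CPM.

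The members, lists and tests were chosen with earlier results of these data known. All 36 members are accounted for. Library values are given for the 14 called members with the smallest adjusted p in the comparisons with shControl or of shDouble with shChd1, and for a further set of Hmgcs1, Sqle, Fasn, Scd1, Srebf1, Srebf2 and Insig1, of which the first 4 are among the 14; Elovl6, Fads1 and the clone values of Mvk were added after the values were seen. Of each further list, at most 3 genes per comparison, those called with the smallest adjusted p, are named; some of these are not reported here.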

Additional observations from a re-analysis of the deposited data

Results flagged for a closer look

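Among the 4 shDouble libraries, 3 of the 36 genes had 1 library far from the others, where chance gives about 1 in 20 groups. Mvd was at 53.4 CPM in replicate 4 against 61.0, 61.4 and 62.1 in the others. Lss was at 143.5 CPM in replicate 2 against 122 to 126. Srebf1 was at 164.7 CPM in replicate 2 against 146 to 148. None of these genes was called in shDouble against shControl.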

How the results depend on the processing

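No value reversed direction while called, and both arm medians stayed above 0 in shMap3k7 or shDouble against shControl and in shDouble against shChd1 under all alternatives run. Members called in shMap3k7 against shControl numbered 3; they were 8 with DESeq2, 0 with the groups compared alone, 0 with counts summed per clone, and 0 to 13 leaving out 1 library. In shDouble against shControl the 12 became 6 with clone as a random effect, 0 per clone and 7 to 19 leaving out 1 library. In shChd1 against shControl the 1 became 6 with DESeq2, 2 with no filter, 2 with limma on the deposited log2 values, 0 with the groups alone and 0 to 9 leaving out 1 library. In shDouble against shChd1 the 24 became 10 with clone as a random effect, 5 per clone and 10 to 26 leaving out 1 library. The interaction gave 0, 2 with DESeq2 and 0 to 2 leaving out 1 library.

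Leaving out 1 library, the shChd1 medians ran from -0.20 to 0.035 (sterol) and -0.024 to 0.27 (fatty acid), and the interaction's fatty acid median from -0.084 to 0.20; it was -0.037 with the clone as a replicate block. That block left the members called at 1 in shChd1, 0 in shDouble against shMap3k7 and 0 in the interaction, and without it the within-clone count was 0; over all genes it moved the shChd1 count from 417 to 139 and the interaction from 0 to 11, and the within-clone count was 4 with it and 0 without. Over all genes, calls in shMap3k7 were 1712, and 227 with the groups alone, 400 per clone, 722 with clone as a random effect, and 244 and 484 without either shMap3k7 library (1085 without shControl replicate 2). In shDouble against shControl they were 3413, and 554 per clone, 1557 with the random effect and 2177 without shControl replicate 2; in shDouble against shChd1 6426, and 1569, 3193, and 4187 or 3649 without shChd1 replicate 1 or 2. In shChd1 the 417 became 1678 with DESeq2, 684 with no filter, 0 with the groups alone, 2650 without shControl replicate 2 and 0 to 72 without any other single library. The interaction's 0 became 371 with DESeq2, 31 with no filter and 1006 without shControl replicate 2, and the within-clone 4 became 7, 25 and 0. The causes were not tested. Acacb, at 0.309 to 1.301 CPM in cells with the Map3k7 hairpin, is the member that depth limits most, since 3 counts are 0.133 to 0.217 CPM.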

Other observations

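More genes of fatty acid oxidation were called lower than higher in cells with the Map3k7 hairpin. Of 19 tested genes of fatty acid oxidation, 1 was higher and 7 lower in shDouble than in shControl, where 10.2% and 13.6% of all genes were. In shMap3k7 1 was higher and 4 lower, where 4.86% and 7.08% of all genes were, and in shDouble against shChd1 0 and 10, where 22.6% and 22.2% were. Cpt1a, the carnitine palmitoyltransferase that admits fatty acids to mitochondria, averaged 28.6 ± 7.98 CPM in shDouble (n = 4) and 72.1 ± 14.1 in shControl (n = 3), a difference of -1.33 ± 0.22 (edgeR adjusted p = 0.00231); it lies on chromosome 19, whose median was 0.39. Acaa2, a mitochondrial thiolase, was -0.56 ± 0.11 (adjusted p = 0.00528). Acadl was -1.20 ± 0.17 in shDouble against shChd1 (adjusted p = 0.000456).

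Of 8 genes of the liver X receptors and sterol efflux, 0 were higher and 4 lower in shDouble than in shControl, where 10.2% and 13.6% of all genes were. Nr1h3, which encodes LXR alpha, averaged 2.04 ± 0.617 CPM in shDouble and 5.87 ± 0.642 in shControl (-1.52 ± 0.28, edgeR adjusted p = 0.00426). Abca1, the cholesterol exporter, was at 0.772 ± 0.514 and 8.22 ± 7.995 CPM (-3.36 ± 0.73, adjusted p = 0.00886), with an SD in shControl close to its mean. Of 7 genes of ester storage and lipolysis, 1 was higher and 2 lower, where the same shares of all genes were. Plin2, the lipid droplet coat protein, was higher in shDouble than in shControl (0.74 ± 0.15, adjusted p = 0.00760) and the lysosomal lipase Lipa lower (-1.11 ± 0.20, adjusted p = 0.00354), as was Plin3 (-0.29 ± 0.093, adjusted p = 0.0484). Without shControl replicate 1, Cpt1a, Acaa2, Nr1h3, Abca1, Plin2, Lipa and Plin3 were still called in shDouble against shControl, with Abca1 at -2.25 (adjusted p = 0.0312) and Cpt1a at -1.17 (adjusted p = 0.00748).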
